A study of Mus musculus with 47 samples.

Results

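The genes of this report encode subunits of the Polycomb repressive complexes, and they were described in 47 single mouse induced pluripotent stem cells (iPSCs) in which counts are assigned to the parental alleles. They were taken from a list of 10 genes of known subunits (Ezh2, Eed, Suz12, Jarid2, Mtf2, Rnf2, Ring1, Kdm2b, Pcgf6 and Rybp), and 9 of the 10 have a row among the 13947 genes of the allelic count table. Mtf2 was not analysed here. The iPSCs were made from embryonic fibroblasts of a cross between a Mus female carrying an X-linked eGFP transgene and a Cast male, reprogrammed with lentiviral Oct4, Sox2, Klf4 and c-Myc, and, by the labels, grown with serum, LIF and ascorbic acid, although the methods say that iPSC controls were picked as colonies and passaged without doxycycline or ascorbic acid. All cells shared this F1 genotype and treatment, were sorted into wells of 1 plate, and were exposed to a GpC methyltransferase before lysis and capture of polyadenylated RNA.

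The deposited column names place each cell in 1 of 3 classes by the X chromosomes from which it is read. They comprise 23 bi-allelic cells (X-Mus X-Cast), 15 cells read from the X of Cast alone (Cast-only, X-Cast O-Mus) and 9 read from that of Mus alone (Mus-only, X-Mus O-Cast). A lost X chromosome and a silent one were not told apart here, whereas the paper judged loss from escapee genes that were no longer expressed biallelically. The labels name no separate cultures, so each class is 1 sample, cells are not replicates, and no difference between classes was tested. Intervals are exact and cover counting error only, since reads without molecular identifiers are not independent molecules. The total of allelic counts per cell lay between 71682 and 216451, with medians of 164722, 168885 and 179357 in bi-allelic, Cast-only and Mus-only cells, and 1 Mus-only cell had fewer than 100000. Of the pluripotent markers, 8 of the 8 with a row had counts in at least 46 cells, whereas among 7 fibroblast markers Col1a2, Prrx1 and Postn were at 0 and Vim had counts in 34 cells. Counts of the absent X allele were 0 in both single-X classes for the 3 X-linked Polycomb genes examined further on (Kdm6a, Hcfc1 and Ogt).

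Polycomb complexes keep developmental regulator genes silent in pluripotent cells by modifying histones. In Polycomb repressive complex PRC2, EZH2 methylates histone H3, EED binds the methylated tail and stimulates the enzyme, and SUZ12 holds the core together, while JARID2 and MTF2 are accessory subunits that help bring it to chromatin. In PRC1, the paralogous E3 ligases RING1 and RNF2 (RING1B) ubiquitinate histone H2A, PCGF6 and RYBP are subunits of variant forms, and KDM2B brings a variant form to unmethylated CpG islands. Both marks also accumulate on the inactive X chromosome of female cells.

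The promoters of the PRC2 core genes are printed because their products act in 1 complex, whereas the levels of their RNA differed between the genes and did not vary together over cells, as described further on. Each window runs from 250 bases before to 50 bases after the RefSeq start site on the coding strand (GRCm38.p6), at chr6:47594981-47595280 (minus strand) for Ezh2, chr7:89980927-89981226 (minus strand) for Eed and chr11:79992856-79993155 (plus strand) for Suz12. Capitals mark a match to 1 of the letter strings TTTCCCGC, TTTGGCGC, TTTCGCGC and TTTGCCGC, which are forms of the E2F motif, searched on both strands.
Ezh2: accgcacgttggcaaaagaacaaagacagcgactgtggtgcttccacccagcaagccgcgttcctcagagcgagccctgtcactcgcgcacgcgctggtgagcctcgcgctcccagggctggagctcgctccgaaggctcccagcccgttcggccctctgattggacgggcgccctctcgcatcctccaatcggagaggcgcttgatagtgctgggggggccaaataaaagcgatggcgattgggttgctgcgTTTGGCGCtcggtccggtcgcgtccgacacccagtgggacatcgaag
Eed: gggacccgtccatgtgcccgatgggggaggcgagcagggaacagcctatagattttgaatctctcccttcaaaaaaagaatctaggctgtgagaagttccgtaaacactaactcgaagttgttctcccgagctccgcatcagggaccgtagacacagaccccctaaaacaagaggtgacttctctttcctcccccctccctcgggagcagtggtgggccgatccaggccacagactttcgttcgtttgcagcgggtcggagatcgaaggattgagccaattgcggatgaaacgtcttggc
Suz12: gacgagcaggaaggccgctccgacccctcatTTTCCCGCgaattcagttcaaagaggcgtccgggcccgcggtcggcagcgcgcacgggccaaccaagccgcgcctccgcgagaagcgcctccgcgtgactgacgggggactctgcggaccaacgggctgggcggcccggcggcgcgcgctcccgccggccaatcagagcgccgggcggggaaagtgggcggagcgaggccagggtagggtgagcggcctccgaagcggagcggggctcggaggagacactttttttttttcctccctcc
The Ezh2 window held TTTGGCGC from base 4 counted from the start site as base 1, and the Suz12 window held TTTCCCGC from base 32 of the window. The Eed window held none of the strings, nor did the windows of Jarid2, Rnf2, Ring1, Kdm2b and Pcgf6. Of 32851 RefSeq windows of this length, 2.26% held at least 1 of the strings, 0.514% held TTTGGCGC and 1.07% held TTTCCCGC. The windows held 31 CpG dinucleotides in Ezh2, 17 in Eed and 41 in Suz12, against a median of 7 over all windows. Windows of the other matched genes held between 18 (the lowest of 4 Kdm2b windows) and 49 (the highest of them), and Rybp was not matched.

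The level of each gene is given as its counts of both alleles per 10000 allelic counts of the cell. A total of 5 of the 9 genes passed a minimum mean of 5 counts per cell, as did 4149 genes of the table. The 5 were Ezh2, Eed, Suz12, Jarid2 and Pcgf6, whereas Rnf2, Ring1, Kdm2b and Rybp stayed under it.

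The PRC2 core genes were unequal in level. Ezh2, the methyltransferase, had 3214 counts in all (chromosome 6, GRCm38 47530139 to 47595341, minus strand). Its level ranged from 0.178 to 15.2 per 10000 over the 47 cells, with a median of 3.82, and no cell lacked counts. Eed, the subunit that reads the mark (chromosome 7, 89954654 to 89980983, minus strand), had 1326 counts, and its level ranged from 0.219 to 4.17 with a median of 1.62. Counts of Eed were likewise present in 47 of 47 cells. Suz12, the scaffold (chromosome 11, 79993106 to 80034123, plus strand), had 385 counts and ranged from 0 to 1.62 with a median of 0.382. It had counts in 38 of 47 cells, so that 9 cells showed Ezh2 and Eed without Suz12. Thinning every cell to 70000 counts left all 3 genes within the counting interval of their detection. Jarid2, the accessory subunit (chromosome 13, 44729474 to 44921643, plus strand), had 2079 counts, was detected in 47 of 47 cells and ranged from 0.210 to 9.28 with a median of 2.37.

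The PRC1 genes differed more widely. Pcgf6, which defines a variant PRC1 (chromosome 19, 47033617 to 47050906, minus strand), had 3256 counts, the most of the 9 genes, with levels from 0 to 11.4 per 10000, a median of 3.88 and counts in 46 of 47 cells. The ligase gene Rnf2 (chromosome 1, 151458004 to 151500955, minus strand) had 122 counts in 26 cells. Its paralogue Ring1 (chromosome 17, 34020792 to 34024680, minus strand) had 7 counts, in 3 cells. Kdm2b, the CpG island reader (chromosome 5, 122870665 to 122989823, minus strand), had 164 counts in 23 cells, and 1 of these cells held 36 of them. Rybp (chromosome 6, 100228565 to 100287485, minus strand) had 18 counts in 6 cells. Kdm2b, Ring1 and Rybp were thus not detectable at this depth in most cells, which does not show that the cells lacked their RNA.

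Set per kilobase of annotated exon, the order was Pcgf6 at 0.829, Ezh2 at 0.632, Eed at 0.440, Jarid2 at 0.280, Suz12 at 0.0970, Rnf2 at 0.0393, Kdm2b at 0.0189, Rybp at 0.00457 and Ring1 at 0.00235 counts per 10000 per kilobase. These levels exceeded those of 94.4% of the 12185 genes with a count for Pcgf6 and of 92.8% for Ezh2. The corresponding shares were 72.6% for Suz12, 55.8% for Rnf2 and 10.5% for Ring1. Because allelic counts exist only at positions that differ between the strains, the density of such positions moves this order as well as the amount of RNA. The coefficient of variation over cells was 0.530 for Eed, 0.640 for Pcgf6, 0.665 for Ezh2, 0.718 for Jarid2 and 0.880 for Suz12. Eed varied least and Suz12, the scarcest of the 5, varied most.

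**Figure D1:**
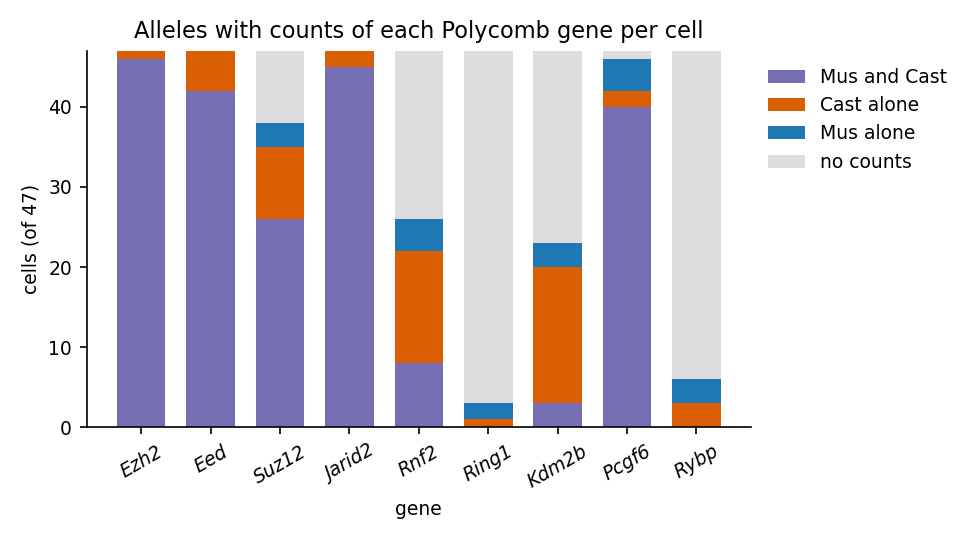
The number of cells (of 47) in which each gene had counts from both alleles, from Cast alone, from Mus alone or no counts, as stacked bars. Ezh2, Jarid2 and Eed had counts from both alleles in 46, 45 and 42 cells, whereas Rnf2 and Kdm2b had them in 8 and 3 cells and Ring1 and Rybp in 0.

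The first comparison asked whether the Polycomb genes differ between Cast-only and bi-allelic cells. A gene was called higher when its class mean was at least 25% above the bi-allelic mean and lower when it was at least 25% below it, so that on the log2 scale a lower call needs a larger difference than a higher one. Among the 5 genes past the filter, Jarid2 was lower, Suz12 was higher and Ezh2, Eed and Pcgf6 met neither limit. The background was large, since 27.7% of the 4149 genes past the filter were higher and 20.8% lower in this comparison, so that 1 of 5 in each direction is a share near it.

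Jarid2 ranged from 0.210 to 9.28 counts per 10000 in bi-allelic cells (median 3.05, mean 3.28, n = 23) and from 0.356 to 4.22 in Cast-only cells (median 1.66, mean 1.91, n = 15). The ranges overlapped, but 12 of the 15 Cast-only cells lay below the bi-allelic median and 3 above it. The difference of the class means was -0.78 on the log2 scale, and that of the pooled counts was -0.73 with a 95% interval of -0.88 to -0.57. Within the plate it was -0.75 in rows A to D and -0.95 in rows E to H. Nanog, a pluripotency factor, was also lower, with a mean of 1.43 against 3.14 and 14 of 15 cells below the bi-allelic median, and Vim, an intermediate filament gene of mesenchymal cells, was higher at 3.22 against 1.25. Summed over the pluripotent list, the Cast-only cells ranged from 21.3 to 88.5 and the bi-allelic cells from 35.1 to 100.3, with 3 of 8 markers lower and 2 higher. In these sums Tdgf1 and Zfp42 weighed most, with bi-allelic means of 36.7 and 17.3. The summed fibroblast list ranged from 0 to 9.14 and from 0 to 3.48. Vim alone reached 9.02 and 3.48, so that this sum largely repeats Vim. The part of the listed markers in the Jarid2 difference was not tested.

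Suz12 ranged from 0 to 1.62 in Cast-only cells (median 0.556, mean 0.579) and from 0 to 1.59 in bi-allelic cells (median 0.379, mean 0.455). The classes covered the same range, and 9 of the 15 Cast-only cells lay above the other median. The log2 difference was 0.35, with a pooled interval of 0.04 to 0.68. It was 0.30 relative to autosomal totals, which is below the limit, and 0.04 in plate rows A to D against 0.56 in rows E to H. Ezh2 means were 3.88 and 4.13 and Eed means 1.61 and 1.67, with log2 differences of -0.09 and -0.05. The upper and lower plate rows went opposite ways, with Ezh2 at 0.39 in rows A to D and -0.56 in rows E to H, and Eed at -0.43 and 0.28. For Eed the pooled interval of the difference ran from -0.23 to 0.14. Eed nevertheless spread further in Cast-only cells, from 0.219 to 4.17, than in bi-allelic cells, from 0.742 to 2.80. Pcgf6 means were 4.17 and 4.59, with a log2 difference of -0.14, which was 0.25 in rows A to D and -0.40 in rows E to H.

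Of the sparse PRC1 genes, Rnf2 had counts in 5 of 15 Cast-only cells and in 17 of 23 bi-allelic cells. The mean level was 0.0845 against 0.218, from 21 and 81 counts. Kdm2b went the other way, with 75 counts in 8 of 15 cells against 67 counts in 11 of 23 cells, but 1 Cast-only cell held 48.0% of that class's counts. Ring1 had 2 counts in either class, and Rybp had 2 against 8, so neither gave an interpretable difference.

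**Figure D2:**
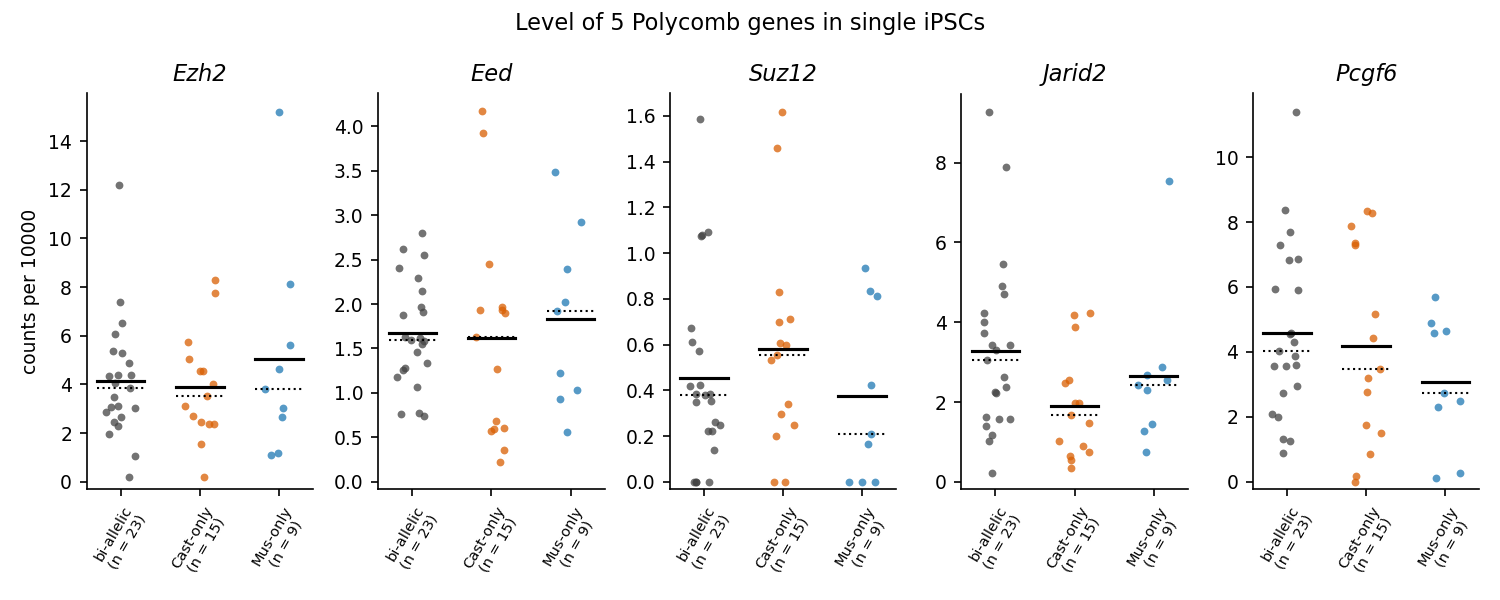
Counts per 10000 allelic counts of the cell for the 5 genes past the filter, 1 point per cell, by class, with the class mean as a solid line and the median as a dotted line; each panel has its own axis. Jarid2 cells of Cast-only (0.356 to 4.22) sit low in the bi-allelic range (0.210 to 9.28), and 1 Mus-only cell stands above the other 8 in Ezh2 (15.2) and Jarid2 (7.53).

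The second comparison set Mus-only against the same bi-allelic cells. Among the 5 genes, 0 were higher and Pcgf6 was lower, against a background of 30.9% of 4149 genes higher and 25.5% lower. Pcgf6 ranged from 0.104 to 5.69 in Mus-only cells (median 2.72, mean 3.07, n = 9) and from 0.883 to 11.4 in bi-allelic cells (median 4.02, mean 4.59). The ranges overlapped, and 5 of the 9 cells lay below the bi-allelic median and 4 above. The log2 difference was -0.58, with a pooled value of -0.45 (95% interval -0.60 to -0.30). It differed between parts of the plate, at 0.01 in rows A to D and -1.50 in rows E to H. The Mus-only cells of rows E to H were at 2.72, 0.279 and 2.48, so the latter value rests on few cells. The lowest of them was the cell with the fewest counts.

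The Mus-only cell with the fewest counts (71682) held the highest level of Ezh2, at 15.2 per 10000, and the highest of Jarid2 in its class, at 7.53. The same cell had Pcgf6 at 0.279, Eed at 0.558 and no counts of Suz12. Jarid2 in the class ranged from 0.737 to 7.53 with a median of 2.43 and a mean of 2.65, and 8 of 9 cells lay below the bi-allelic median. The log2 difference of -0.31 did not reach the limit with this cell and was -0.69 without it, which did. In plate rows it was -0.80 in A to D and 0.29 in E to H, where the Mus-only cells were at 2.67, 7.53 and 0.737. Ezh2 was 0.29 higher on the log2 scale with the cell and -0.13 without it, and its class medians were 3.82 and 3.87. Eed differed by 0.13, with means of 1.83 and 1.67, and Suz12 by -0.28, with means of 0.376 and 0.455. Neither reached the limit, but Suz12 was at -0.87 over class medians. In plate rows A to D it was at -0.21, and in rows E to H the class had 3 Suz12 counts, all in 1 cell. Nanog was again lower, at 1.31 against 3.14, with 9 of 9 cells below the bi-allelic median, and Vim was at 0.944 against 1.25. Of the 8 pluripotent markers 3 were higher and 3 lower, and Dppa4, with a log2 difference of 0.93 and 9 of 9 cells above the bi-allelic median, went the other way from Nanog. The sparse genes had few counts in the 9 cells. Rnf2 had 20 counts in 4 cells (mean 0.149 against 0.218), Kdm2b had 22 in 4 cells, all Cast, Rybp had 8 in 2 cells and Ring1 had 3 in 1 cell, the last pair all Mus. The 2 comparisons share the bi-allelic cells, so their values do not stand as separate evidence.

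The other Polycomb genes were counted from lists of subunits and of enzymes and cofactors that remove the marks. Of 7 other PRC2 genes with a row, 3 passed the filter, and in Cast-only cells 1 was higher and 1 lower, with the same counts in Mus-only cells. Epop, an Elongin-binding accessory subunit, was the lower one in both, with log2 differences of -0.78 and -0.66 and means of 0.447 and 0.489 against 0.771. In Cast-only cells 12 of 15 lay below the bi-allelic median, and in Mus-only cells 8 of 9. Phf19, a PRC2 accessory subunit, differed by -0.22 and 1.42, but 1 Mus-only cell held 70.2% of its counts in that class, and the latter value was -0.26 without it. A single Cast-only cell held 64.1% of its counts there, and the former value was -1.51 without that cell. Of 29 other PRC1 genes, 12 passed, 4 were higher and 1 lower in Cast-only cells, and 4 were higher and 1 lower in Mus-only cells. These counts stand beside the 27.7% and 20.8%, and the 30.9% and 25.5%, of all genes called higher and lower in the respective comparisons. The median log2 difference of the 12 was 0.20 in Cast-only and -0.05 in Mus-only cells, beside 0.01 and 0.02 over all genes past the filter.

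Phc1, a canonical PRC1 subunit of the polyhomeotic family, was higher in Cast-only cells by 0.85, with a mean of 2.74 against 1.52, and 13 of 15 cells lay above the bi-allelic median. In Mus-only cells it was 0.65 higher, in 7 of 9 cells. Tfdp1, the partner of E2F factors, was 0.97 higher in Cast-only cells, with 14 of 15 above the median, and differed by -0.15 in Mus-only cells, or by -0.72 without the highest of these cells. Pcgf3, a paralogue of Pcgf6, differed by 1.36 and -2.09, but it had counts in 20 cells in all, and in Mus-only cells in 1 of 9. A single Cast-only cell held 65 of the counts of its class at 5.31 per 10000, the difference was 0.42 without it, and 9 of 15 Cast-only cells lay below the bi-allelic median. Cbx7, the main CBX subunit of canonical PRC1 in pluripotent cells, was 0.16 higher in Cast-only and 0.68 higher in Mus-only cells, where 8 of 9 cells lay above the bi-allelic median and the value was 0.30, within the limit, without the highest cell. Wdr5 differed by -0.54 and -0.21, the latter -0.60 without the highest Mus-only cell, and the deacetylase gene Hdac1 by -0.14 and -0.23.

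Of 11 genes for removal of the marks, 7 passed the filter, and 2 were higher and 2 lower in Cast-only cells against 2 higher and 1 lower in Mus-only cells, beside 27.7% and 20.8%, and 30.9% and 25.5%, of all genes past the filter, so that these shares too lie near the background. X-linked were 3 of the 7. Kdm6a (UTX), an H3 demethylase that escapes X inactivation, had a mean of 0.499 in bi-allelic cells, 0.269 in Cast-only cells and 0.110 in Mus-only cells, with log2 differences of -0.89 and -2.18. All 9 Mus-only cells lay below the bi-allelic median, and 60.0% of the 15 counts of that class came from 1 cell. Hcfc1, a transcriptional cofactor bound by the deubiquitinase BAP1, differed by -0.22 and -0.26, and Ogt, an O-GlcNAc transferase, by -0.15 and -0.37, neither past the limit. Without the highest cell of each single-X class, Ogt was at -0.53 and -0.89 and Hcfc1 at -0.51 in Mus-only cells, all past it. In Cast-only cells Hcfc1 was then at -0.37. All bi-allelic cells were kept, so these values had to fall, and no added difference is read from them. The median X-linked gene past the filter (107 genes) differed by -0.83 and -0.79. Usp16, an H2A deubiquitinase, was -0.44 and 0.55, the latter 0.22 without its highest Mus-only cell. Asxl1, a BAP1 partner, was 0.20 and 0.70, but the Mus-only cell with 71682 counts held 35 of its counts at 4.88 per 10000, and without it the value was -0.20.

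**Figure D3:**
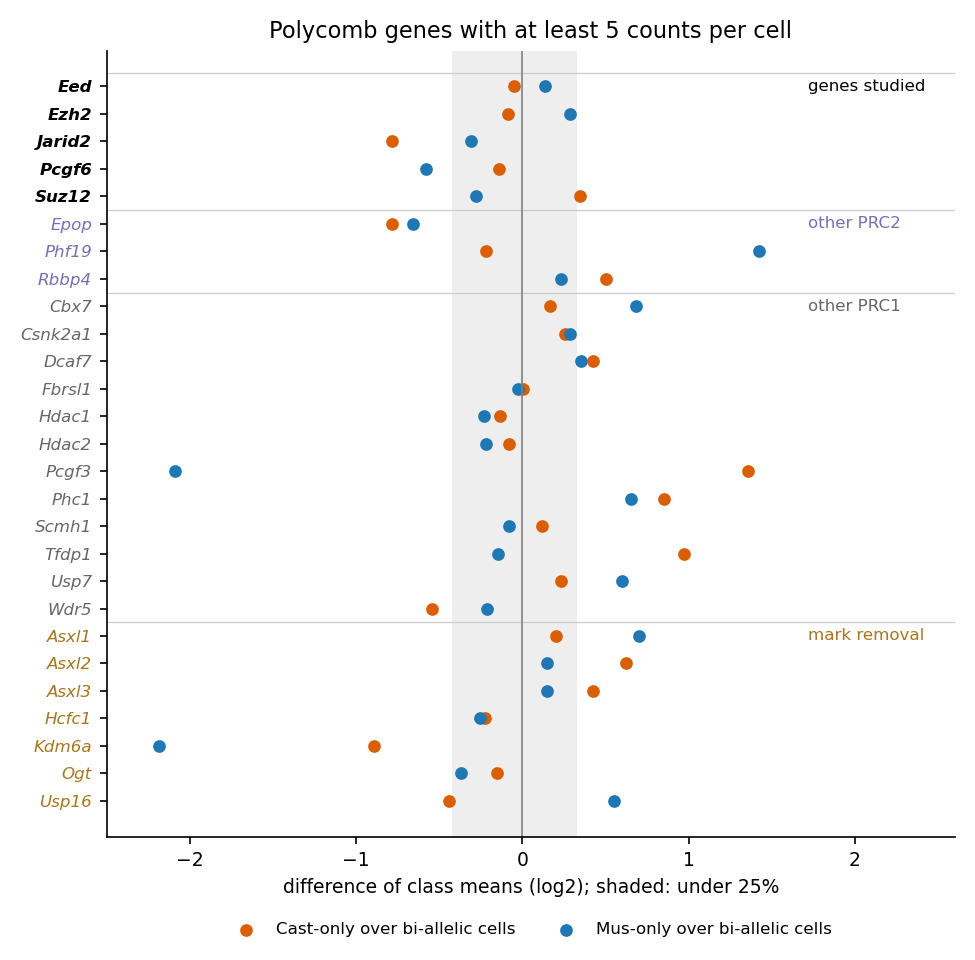
Log2 difference of class means against bi-allelic cells for 27 Polycomb-related genes past the filter, with Cast-only in orange and Mus-only in blue; the shaded band holds differences under 25%. Jarid2 and Epop lie to the left of the band in Cast-only cells at -0.78 each, and Pcgf3 and Kdm6a lie farthest left in Mus-only cells at -2.09 and -2.18.

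Of 25 developmental genes that Polycomb complexes are known to hold silent in pluripotent cells, 13 had a row and 8 of these had 0 counts, which allows up to 3 counts each over all cells. Among the others, Eomes had 34 counts in 4 cells, Gsc had 20 in 3 cells, Isl1 had 12 in 1 cell and Gata4 had 3 in 1 cell. Counts of these 4 genes thus appeared in few cells, and no order of the classes was read from them.

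The allelic share was compared next, since the cross separates the Mus from the Cast copy of each gene. Over all autosomal genes 42.9% of counts came from the Mus allele, with 41.7% to 44.9% over cells. Eed, Rnf2 and Kdm2b were biased to Cast, with at least 25% more counts from that allele, and Ring1 and Rybp to Mus on 7 and 18 counts. The background was 48.8% of the 12185 genes with a count for Cast and 32.2% for Mus. Of the 5 genes past the filter Eed alone was biased, and of all 4149 such genes 1910 were biased to Cast and 922 to Mus.

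Eed had a Mus share of 31.4% (95% interval 28.9 to 33.9), from 416 Mus and 910 Cast counts. The share was 29.6% in bi-allelic, 32.8% in Cast-only and 33.2% in Mus-only cells, so the bias had one direction in each class. Of 44 cells with at least 5 counts, 38 lay below 50% and 5 above. The other genes of chromosome 7 had a pooled share of 44.6%, and Eed lay below 78.3% of the autosomal genes past the filter. E230029C05Rik, annotated on the opposite strand and overlapping Eed, had 47 counts with 42.6% from Mus, and its part in the share of Eed was not tested.

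Ezh2 had a Mus share of 52.4% (50.6 to 54.1), Pcgf6 of 50.2% (48.5 to 52.0), Suz12 of 50.6% (45.5 to 55.8) and Jarid2 of 48.8% (46.7 to 51.0). None of these reached the limit, and the shares of the other genes on their chromosomes were 45.5%, 44.8%, 46.7% and 49.0%. The counting intervals of Ezh2 and Pcgf6 lay above the share of their chromosomes, while those of Suz12 and Jarid2 included it. Ezh2 was however at 60.1% in plate rows A to D, past the limit toward Mus, and at 44.97% in rows E to H. Relative to autosomal totals of each allele, Ezh2, Suz12, Jarid2 and Pcgf6 all passed the limit toward Mus, because the table as a whole had fewer Mus than Cast counts. Class by class, Ezh2 stayed between 49.8% and 53.4%, Jarid2 between 47.3% and 51.9% and Pcgf6 between 48.8% and 52.1%. Suz12 was at 51.4% in bi-allelic and 54.0% in Cast-only cells, and in Mus-only cells 24 of its 60 counts were Mus (95% interval of the share 27.6 to 53.5).

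Rnf2 had a Mus share of 27.9% (20.1 to 36.7), and the other genes of chromosome 1 had 31.8%, the interval of Rnf2 including it. In 43 cells its Mus share was 27.6% to 34.9%, and Rnf2 there had 88 Cast and 31 Mus counts in 25 cells. In the other 4 cells the share was 43.96% to 47.7%, and Rnf2 had 3 counts, all Mus, in 1 cell. The chromosome gave a median of 8.65% of autosomal counts in the former and 5.95% in the latter. By class, 20 of 81 Rnf2 counts were Mus in bi-allelic, 12 of 21 in Cast-only and 2 of 20 in Mus-only cells. Trmt1l, which overlaps Rnf2, had 31 counts with 12.9% from Mus. Kdm2b had a Mus share of 28.7% (21.9 to 36.2) against 44.8% for the rest of chromosome 5. It overlaps Rnf34, which had 313 counts with a Mus share of 27.8%, and A930024E05Rik, with 42 counts, all Cast. The use of strand in counting is not given in the sources used here, so reads of Kdm2b and Rnf34 in their shared stretch could not be told apart.

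**Figure D4:**
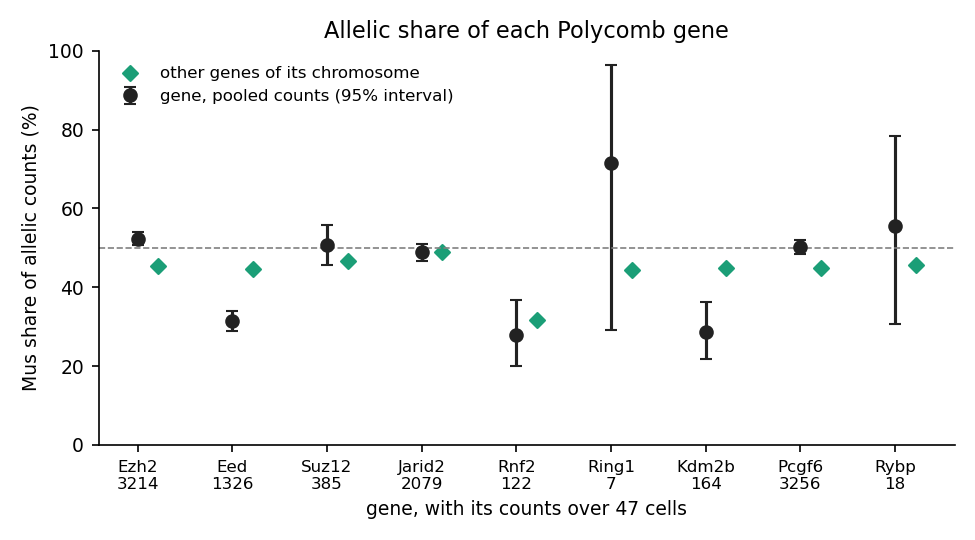
Pooled Mus share of allelic counts for the 9 genes with exact 95% binomial intervals (black) and for all other genes of the same chromosome (green diamonds); the counts behind each value stand under the name and the dashed line marks 50%. Eed at 31.4% and Kdm2b at 28.7% lie below their chromosomes at 44.6% and 44.8%, whereas Rnf2 at 27.9% lies beside chromosome 1 at 31.8%.

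Behind near-equal pooled shares, single cells differed widely. For Ezh2 the Mus share of the 45 cells with at least 5 counts ran from 5.88% to 85.2%, with 19 cells below 50% and 26 above and 0 at either end. Jarid2 ran from 0% to 87.0% in 45 cells, with 26 below and 19 above. Pcgf6 ran from 0% to 100% in 43 cells, with 20 below and 21 above, 1 cell read from Cast alone and 2 from Mus alone. In Suz12, 6 of 30 such cells were read from Cast alone and 3 from Mus alone, and 4 of the 6 and 2 of the 3 were Cast-only cells. In Kdm2b, 8 of 12 cells were read from Cast alone and 2 from Mus alone, so its pooled share described few single cells. Cells read from 1 allele alone made up 0% for Ezh2, 2.22% for Jarid2, 4.55% for Eed, 6.98% for Pcgf6 and 30.0% for Suz12, beside a median of 32.4% over autosomal genes past the filter, a comparison that depends on the counts per cell of each gene.

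The Cast and Mus counts of a gene were correlated over the 47 cells, with Spearman's rho of 0.53 for Pcgf6, 0.51 for Eed, 0.39 for Jarid2, 0.34 for Ezh2 and 0.14 for Suz12, beside a median of 0.21 over autosomal genes past the filter. Both counts of a cell share its library and depth. Few counts per cell also lower such a correlation, so the comparison with the median depends on the level of each gene.

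**Figure D5:**
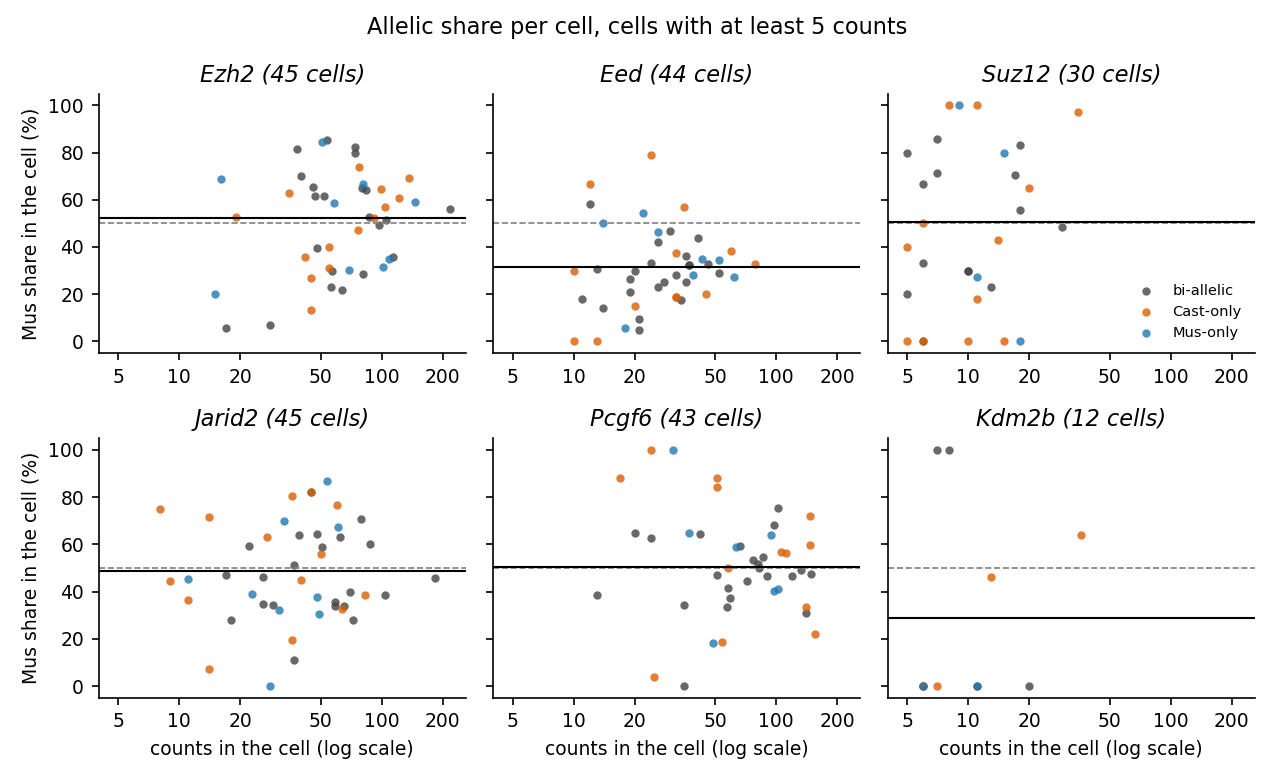
Mus share in each cell with at least 5 counts against the counts of the gene in that cell (log scale), coloured by class, with the pooled share as a solid line and 50% dashed. Eed cells lie mostly below 50% (38 of 44), Ezh2 and Jarid2 cells lie on both sides, and Kdm2b cells lie mostly at 0% (8 of 12).

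Between genes, levels varied with little relation. Spearman's rho over the 47 cells was 0.11 for Ezh2 with Eed, -0.0022 for Ezh2 with Suz12 and -0.01 for Eed with Suz12, the genes of the PRC2 core whose promoters are printed above. The highest value among the 10 pairs of the 5 genes was 0.38 for Ezh2 with Jarid2, above that of Ezh2 with 98.3% of genes past the filter. The other pairs lay between -0.12 and 0.18. All these values are over cells of 1 plate that share their depth and class makeup, and they are given as a description. Among the 4148 other genes past the filter, Vrk1 (0.53) was among the 2 genes most like Ezh2, those most like Eed were Chid1 (0.51) and Uchl5 (0.50), and those most like Pcgf6 were Puf60 (0.53) and Rps6kb1 (0.50). Jarid2 was most like Psmg4 (0.66) and Yae1d1 (0.55), and both of these lie on chromosome 13, as Jarid2 does. Picking the highest of 4148 values over 47 cells yields high values by itself, and how high unrelated genes would reach was not tested.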

How the data were processed

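Full-length cDNA of 47 sorted iPSCs from 1 plate was sequenced, and the authors deposited 1 table of raw counts per gene, cell and allele. The submitters' processing notes name STAR 2.5.3a, SAMtools and mm10. For allele-specific analyses of Smart-seq2 libraries the methods state alignment to an N-masked mm10 genome, splitting of reads by strain with SNPsplit and counts at SNP positions. Genes with at least 4 SNPs were kept. That section does not name this plate, so whether each step was the same here is not stated. Of gene and cell pairs with counts, 0.309% had a count of 1 and 12.4% a count of 2, so counts were not treated as molecules. Cells took their class from the deposited column names, as the labels give none. Both alleles were added and scaled to 10000 allelic counts per cell, and class means were taken over cells. A difference of 25% or more was called higher, lower or biased, where the gene averaged 5 or more counts in a cell (no minimum for allelic bias). No fold is printed where a class had 3 counts or fewer. The script was tested on simulated data. Intervals at the 95% level were Clopper-Pearson for shares and the exact conditional interval for ratios of pooled counts. Genes were placed with GENCODE M21 (GRCm38) and promoters come from RefSeq. Named were all 10 genes; of the other Polycomb lists, X-linked genes past the filter and the 3 highest and 3 lowest differences per comparison; the 5 developmental genes with most counts; and, for genes with counts in at least 40 cells, the 2 genes with the highest correlation. Some genes that this rule names are not reported here. The 10 genes and the lists were chosen with earlier results of these data known. Alternatives covered scaling, averaging, filters, thresholds, shallow cells and plate rows. Scripts ran in Python 3.11.15 with scipy 1.17.1, pandas 2.3.3, numpy 2.4.6 and, for figures, matplotlib 3.10.9.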

Additional observations from a re-analysis of the deposited data

Results flagged for a closer look

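Among the 9 Mus-only (X-Mus O-Cast) cells, 4 of 14 values had an extreme cell by Dixon's ratio, whose critical value for 9 is 0.493; the cells are of 1 plate and not replicates, chance alone flags about 1 in 20, and the ratio describes these cells only. The cell with the fewest counts had Ezh2 at 15.2 counts per 10000, where the next was at 8.14, and Jarid2 at 7.53, where the next was at 2.87. Ring1 was at 0.156 in another cell, the single one of the class with counts (3 counts), so that the ratio could not have been other than 1. Rybp was at 0.312 in a further cell, from 6 counts, with the next at 0.112 and the remaining cells at 0. Their causes were not tested.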

How the results depend on the processing

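Among the 5 genes past the filter, the count of genes higher in Cast-only cells (1, Suz12) was 0 relative to autosomal totals and with a 2-fold limit. In plate rows A to D the 1 gene was Ezh2. Of all genes past the filter, 26.3%, 6.82% and 32.3% were higher in these settings, in that order. The count lower (1, Jarid2) was 2 in rows A to D with Eed, 2 in rows E to H with Ezh2, and 0 with a 2-fold limit. The matching shares of all genes lower were 23.9%, 31.3% and 6.07%. For Mus-only cells the count higher (0) was 1 in rows E to H, through Ezh2, beside 29.9% of all genes past the filter. There the cell with the fewest counts had Ezh2 at 15.2 per 10000. The count lower (1, Pcgf6) was 2 with median-of-ratios size factors, without the highest cell of each class and without the cell under 100000 counts, each time with Jarid2 added, and 2 over medians and in rows E to H, both with Suz12 added. It was 1 in rows A to D through Jarid2, and 0 with a 2-fold limit. Of all genes past the filter, 27.6% were lower with median-of-ratios size factors and 38.03% without the highest cell of each class. The share was 24.3% without the cell under 100000 counts, 35.9% over medians and 41.5% in rows E to H. In rows A to D it was 27.8%, and with a 2-fold limit 10.1%. With a minimum mean of 1 count (7 genes), 2 were higher and 2 lower in Cast-only cells and 2 lower in Mus-only cells. Of all genes at this minimum, 34.4%, 27.98% and 33.1% were, in that order. With no filter (8 genes), 2 were higher and 3 lower in Cast-only cells, beside 35.5% and 36.6% of all genes. In Mus-only cells 1 was then higher and 2 lower, beside 34.6% and 42.2%. These changes came through Rnf2, Kdm2b and Rybp (2 counts in Cast-only cells). In rows A to D the difference of Pcgf6 in Mus-only cells was 0.0066 on the log2 scale, and in rows E to H that of Rnf2 was 0.099, both turned in sign. The causes were not tested.

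The count biased to Mus (2) was 1 with means or medians of per-cell shares of cells with 5 counts, in bi-allelic cells alone, in rows E to H and with a 2-fold limit, and 0 with 10 counts per cell or without the cell with most counts. It was 3, with Ezh2 added, in rows A to D and with alleles scaled to the same chromosome. With alleles scaled to autosomal totals it was 6, by construction of the scale. Of all genes measured in each setting, 29.5% were biased to Mus with means and 34.03% with medians of per-cell shares. The percentage was 32.9% in bi-allelic cells alone, 33.3% in rows E to H and 20% with a 2-fold limit. It was 30.4% both with 10 counts per cell and without the cell with most counts. In rows A to D it was 33.2%, and with alleles scaled to the same chromosome or to autosomal totals 42.4% and 44.6%. Rybp turned to a Mus share of 33.3% without its highest cell and 25% in bi-allelic cells alone. With a minimum mean of 5 counts per cell, an alternative chosen after seeing the data, 1 gene was biased to Cast and 0 to Mus. Of all genes at this minimum, 46.04% and 22.2% were. The count biased to Cast (3) stayed between 2 and 4 under the other alternatives, and Eed was among them in each. Of all genes, between 33.2% (2-fold limit) and 51.9% (medians of per-cell shares) were biased to Cast in these settings. Of 114 alternative values of single differences, 88 stayed within their counting interval, and 10 had the other sign. Of 86 shares, 61 stayed within it and 12 lay on the other side of 50%, and 9 of 9 detection values stayed within it. For the other named genes, an alternative chosen after seeing the data left out the highest single-X cell, which can only lower a value. In Mus-only cells Phf19 turned to -0.26 and Asxl1 to -0.20, and Cbx7 and Usp16 fell within the limit. Newly past the lower limit were Phf19 and Ogt in Cast-only cells and Ogt, Hcfc1, Tfdp1 and Wdr5 in Mus-only cells. No paired analysis was possible because the labels carry no replicate numbers.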

Other observations

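Of the 12 other PRC1 genes past the filter, 5 were biased to Cast, 1 to Mus and 6 to neither, beside 1910 and 922 of all 4149 genes. All 3 other PRC2 genes were biased to Cast, and of 7 genes for removal of the marks 3 were biased to Cast, 3 to Mus and 1 to neither. Cbx7 had 4.66% of its 2962 counts from Mus (95% interval 3.93 to 5.48), Hdac1 had 23.4% of 4846 (22.2 to 24.6), and Phc1, which was higher in both single-X classes, had 32.96% of 1617. The other PRC1 gene biased to Mus was Csnk2a1, named after its values were seen, with 92.6% of 1118 counts.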
